A study of Caenorhabditis elegans with 2 samples.

Results

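The nhr genes of Caenorhabditis elegans encode nuclear receptors, and most of them belong to an expanded branch that arose by duplication of genes related to the mammalian receptor HNF4. They were examined here as genomic places where another nuclear receptor, NHR-23, was found on DNA. The members were all protein-coding genes with an nhr symbol in the Ensembl annotation except 9 conserved receptors (nhr-6, nhr-8, nhr-23, nhr-25, nhr-41, nhr-48, nhr-67, nhr-85 and nhr-91), which left 260 of 19973 protein-coding genes. A member was called bound when the summit of a thresholded peak fell in its window, which reached 1500 bp upstream and 500 bp downstream of any annotated transcript start. By that rule 55 members were bound and 205 were not.

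NHR-23 tagged with eGFP was immunoprecipitated from whole L3 larvae of both sexes and the attached DNA was sequenced (ChIP-seq). All larvae were of strain OP43, with the genotype unc-119(ed3) III; wgIs43, in which wgIs43 is the inserted transgene for the tagged receptor. The 2 biological replicates formed 1 group, so no comparison between conditions could be made and no test was run. The sources used here name no promoter for the transgene and no age of the larvae, and whole larvae mix all tissues. Whether each replicate was a separate culture is not stated beyond the label of a biological replicate. The authors' thresholded list held 4944 peaks, their pooled list 30000, and the lists of replicates 1 and 2 held 30000 and 27191. The signal of a peak is the peak caller's own measure, and a rank of 1 marks the strongest peak of a list. The lists hold no read counts, so the depth behind each signal is unknown. The intervals given for shares are exact (Clopper-Pearson) at 95% and cover counting error only, and neighbouring genes are not independent draws.

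A nuclear receptor binds DNA through 2 zinc fingers and in many cases responds to a small lipophilic ligand. NHR-23, the worm counterpart of the ROR receptors, is required for molting, and receptors of its kind read the short core motif AGGTCA or GGGTCA. The expanded family includes NHR-49, which controls fat metabolism and the fasting response, and receptors that answer to diet, toxins and pathogens. Many other members have no assigned role. A large part of the family lies in tandem arrays on chromosome V.

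The sequences around the summits are shown first, because the member summits differed in the short words they hold. All are 101 bases centred on a summit of the thresholded list, taken from the RefSeq genome of WBcel235 (the same assembly as ce11), and written 5′ to 3′ on the strand of the named member. The receptor core motif, AGGTCA or GGGTCA in either orientation, lay within 50 bp of 5 member summits. Its letters are in capitals, and it reads TGACCT where it lies on the strand opposite to the gene.
nhr-32, chrX:13251408-13251508, plus strand: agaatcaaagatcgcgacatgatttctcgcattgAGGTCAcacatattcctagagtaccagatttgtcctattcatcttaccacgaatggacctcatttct
nhr-31, chrIV:8027439-8027539, minus strand: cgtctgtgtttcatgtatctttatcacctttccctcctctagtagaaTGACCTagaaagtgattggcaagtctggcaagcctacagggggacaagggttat
nhr-127, chrV:16260973-16261073, plus strand: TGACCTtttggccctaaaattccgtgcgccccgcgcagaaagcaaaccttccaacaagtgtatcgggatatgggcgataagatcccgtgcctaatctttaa
nhr-168, chrV:13335285-13335385, minus strand: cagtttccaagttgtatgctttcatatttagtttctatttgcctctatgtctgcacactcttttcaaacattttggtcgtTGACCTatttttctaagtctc
nhr-86, chrV:2068185-2068285, minus strand: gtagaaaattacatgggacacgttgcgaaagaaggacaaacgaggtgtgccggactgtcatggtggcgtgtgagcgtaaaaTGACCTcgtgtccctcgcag

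The word CTGCGTC was searched after it had been noticed in these sequences. It is in capitals in the 3 strongest summits that hold it, by the signal of the summit itself, and in the summit that nhr-130 and nhr-212 share.
nhr-14, chrX:8477585-8477685, minus strand: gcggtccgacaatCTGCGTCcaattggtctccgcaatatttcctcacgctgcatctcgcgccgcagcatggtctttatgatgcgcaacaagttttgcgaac
nhr-119, chrII:2800921-2801021, minus strand: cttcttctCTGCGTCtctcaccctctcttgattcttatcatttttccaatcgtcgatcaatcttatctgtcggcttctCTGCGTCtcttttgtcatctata
nhr-1, chrX:17513667-17513767, plus strand: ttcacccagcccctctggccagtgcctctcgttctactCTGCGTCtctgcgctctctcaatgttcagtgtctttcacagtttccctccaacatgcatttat
nhr-130 and nhr-212, chrV:484372-484472, minus strand: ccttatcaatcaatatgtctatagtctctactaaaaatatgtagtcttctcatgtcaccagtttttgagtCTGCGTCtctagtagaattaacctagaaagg

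GAGAGA, in capitals and read as TCTCTC on the opposite strand, lay in longer runs at the summits of nhr-43, nhr-5 and nhr-10.
nhr-43, chrIV:11899545-11899645, plus strand: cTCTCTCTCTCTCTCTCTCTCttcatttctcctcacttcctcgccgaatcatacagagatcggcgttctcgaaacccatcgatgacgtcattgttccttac
nhr-5, chrIV:15398781-15398881, plus strand: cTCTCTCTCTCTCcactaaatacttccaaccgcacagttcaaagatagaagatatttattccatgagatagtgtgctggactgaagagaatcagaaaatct
nhr-10, chrIII:7116785-7116885, minus strand: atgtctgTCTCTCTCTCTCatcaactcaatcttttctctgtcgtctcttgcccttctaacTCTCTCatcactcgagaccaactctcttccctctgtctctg

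The share of the family that was bound lay close to that of all genes. It was 21.2% of members (55 of 260, interval 16.4 to 26.6), against 19.4% of all protein-coding genes (3883 of 19973), and the interval of the members holds the share of all genes. Other peak sets and windows gave between 24 members (9.23%, where 11.4% of all genes were bound) with the 2472 strongest peaks and 73 members (28.1%, where 24.8% were) with a window reaching 3000 bp upstream. The shares lay further apart when each summit went only to the nearest start within 3000 bp. In that setting 66 members were bound (25.4%), against 17.1% of all genes. The family is unevenly spread over the genome, with 167 members (64.2%) on chromosome V, which carries 25% of all genes. On chromosome V 27 of 167 members were bound (16.2%, interval 10.9 to 22.6), against 13.6% of the genes there. Off chromosome V 28 of 93 members were bound (30.1%, interval 21.0 to 40.5), against 21.4% of genes.

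On chromosome I 6 of 21 members were bound (28.6%), where 25.4% of all genes were. On chromosome II the count was 4 of 15 (26.7%), against 18.6% of genes. On chromosome III it was 2 of 7 (28.6%), against 27.5%. On chromosome IV it was 10 of 30 (33.3%, interval 17.3 to 52.8), against 17.8%. On chromosome X it was 6 of 20 (30.0%), against 19.0%. On each of the 6 chromosomes the members' interval included the share of all genes, so no chromosome differed beyond counting error. The members' share was the higher one on all 6, but it kept that direction in all 8 alternatives on IV and X alone. It was lower than that of all genes in 5 of 8 on I, in 3 of 8 on II, in 3 of 8 on III and in 2 of 8 on V. With replicate 1's strongest peaks, for example, 2 of 21 members on I were bound (9.52%), against 23.04% of genes.

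**Figure D1:**
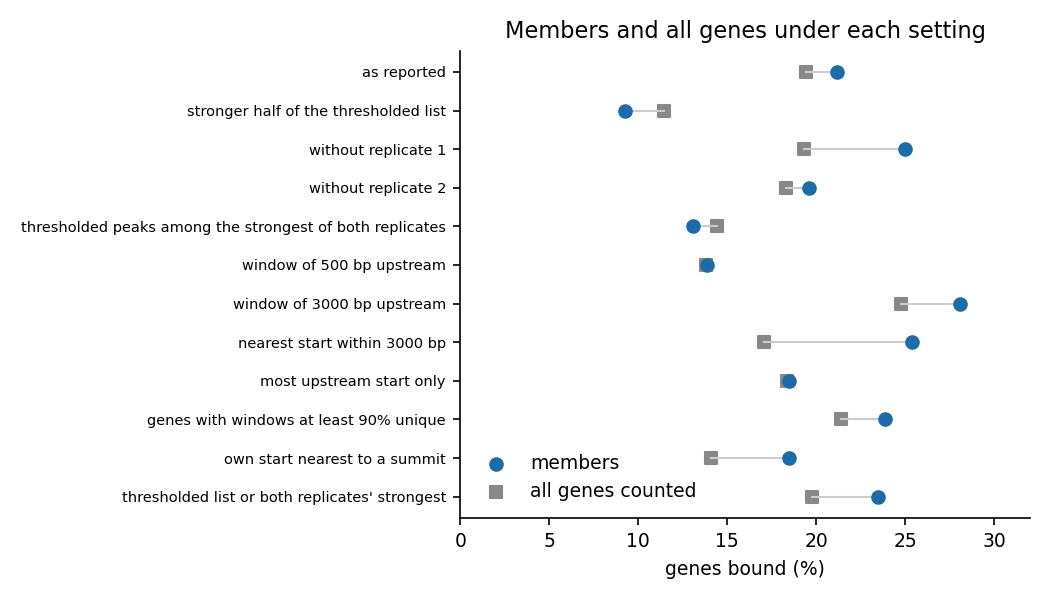
Percentage of genes bound under each setting, for members (blue circles) and all protein-coding genes counted (grey squares), with the first line the values as reported. Members lie above all genes in 9 of 11 alternatives, and below in the 2 that keep only the strongest peaks.

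**Figure D2:**
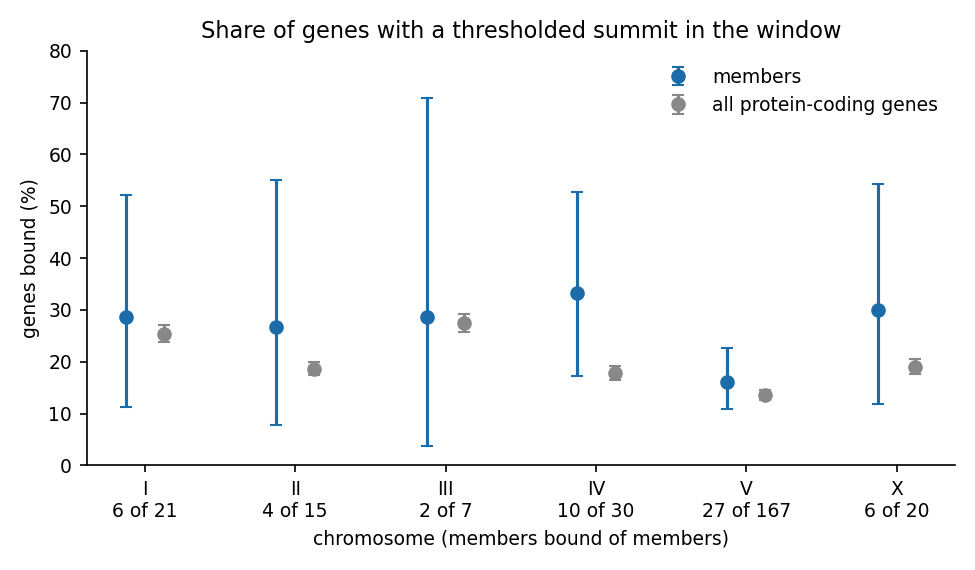
Percentage of genes bound on each chromosome, for members of the family (blue) and for all protein-coding genes (grey), with exact 95% intervals as bars. Members lie from 16.2% on chromosome V to 33.3% on chromosome IV, and every interval of the members covers the grey point of its chromosome.

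Within chromosome V the share of bound members was described by position. A chromosome's centre was taken as the stretch from 25% to 75% of its length and its arms as the ends. In the arms of V 20 of 111 members were bound (18.0%, interval 11.4 to 26.4), against 8.27% of the 2370 genes there, and the interval excludes the latter share. In the centre of V 7 of 56 members were bound (12.5%, interval 5.18 to 24.1), against 18.5% of genes. The count in the centre of V was 12 when replicate 2's own 4944 strongest peaks were used and 15 with those of replicate 1, so the low share there was not seen in either replicate alone. The arm counts were 23 and 16 in the same settings. With the 2472 strongest thresholded peaks only 5 arm members were bound (4.50%), against 4.09% of genes. The difference in the arms was thus not seen among those peaks, on a small count. The left arm of V held 17 of the 20 bound arm members, of 74 members (23%, against 11.3% of genes). The right arm held 3 of 37 (8.11%, against 5.16%). Over all chromosomes the centres gave 24 of 104 members (23.1%, against 22.2% of genes) and the arms 31 of 156 (19.9%, against 16.0%). In the centre of IV 8 of 18 members were bound (44.4%, interval 21.5 to 69.2), against 18.9% of genes.

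Near the left end of chromosome V the thresholded list gave a higher share of bound members than of other genes. In the first 1000000 bp, a window set after the values were seen, 10 of 26 members were bound (38.5%, interval 20.2 to 59.4). Of the 197 other protein-coding genes there 29 were bound (14.7%). With replicate 1's strongest peaks the count of members was 6 and with replicate 2's it was 10. With thresholded peaks strong in both replicates it was 5 (19.2%), against 14.3% of all genes there. With the 2472 strongest peaks it was 2 (7.69%), against 9.42%, so the higher share was not seen among those peaks. A count of 2 is too small to show a direction. A run of 12 members between 451451 and 497297 held 5 bound members (nhr-202, nhr-201, nhr-130, nhr-212 and nhr-131) with signals from 45.1 to 52.0. Next to it, between 532259 and 541485, all 3 members were bound. In that run nhr-155 had a signal of 124, with 53.2 in replicate 1 and 74.0 in replicate 2. Its neighbour nhr-58 had a signal of 81.0, with 46.9 and 38.3, and nhr-132 had 45.5, with 11.3 and 34.6. Both nhr-155 and nhr-58 were among the 4944 strongest peaks of each replicate, while nhr-132 ranked 2562 in replicate 2 and 8904 in replicate 1. Between the bound members of the longer run stood nhr-99 and nhr-106, which had no pooled peak in their windows.

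**Figure D3:**
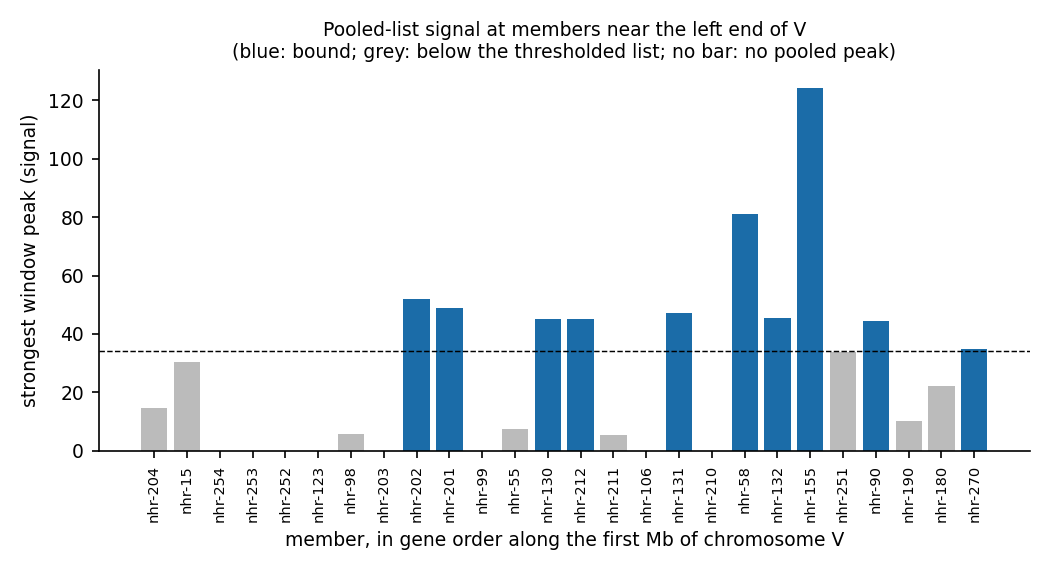
Signal of the strongest pooled peak in the window of each of the 26 members in the first 1000000 bp of chromosome V, in gene order; bars are single values of the pooled list without an error, and the dashed line is the lowest thresholded signal, 34.2. The 10 blue bars are bound members, the tallest of them nhr-155 at 124, and the members without a bar had no pooled peak in the window.

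Members lying close together were examined next. Of all members, 150 had another member's start within 10 kb, and 121 of these were on V. They are called members in arrays here, whatever their strand, and pairs are included. Of these 150, 23 were bound (15.3%, interval 9.98 to 22.1), against 32 of the 110 other members (29.1%, interval 20.8 to 38.5). Within V the shares were close, 20 of 121 in arrays (16.5%) and 7 of 46 outside them (15.2%), so no difference was seen there. Off V 3 of 29 members in arrays were bound (10.3%, interval 2.19 to 27.4) and 25 of 64 outside them (39.1%, interval 27.1 to 52.1), and the intervals overlap at their edges. Those 3 were nhr-87 and the pair nhr-81 and nhr-165, which lie head to head and share a summit. The share outside arrays was the higher one off V in all 8 alternatives run, while the count in arrays ranged from 0 to 7. There were 20 arrays of at least 3 members, with 104 members in all, of which 14 were bound. On V the 9 arrays in the left arm held 13 bound of 55 members, and the 7 arrays further along held 0 bound of 36, a split drawn after the values were seen. Of all genes, 11.3% were bound in the left arm of V and 14.4% in the rest of it. Those 7 arrays include 1 of 8 members (15674007 to 15702363, from nhr-51 to nhr-53) and 1 of 7 members (6980587 to 7000651, from nhr-161 to nhr-42). The count of 0 belongs to the thresholded list, for 12 of the 36 had a weaker pooled peak in the window. With replicate 1's strongest peaks 4 of the 36 were bound and with replicate 2's 3, 3 of them with both.

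The strongest member peak lay 1457 bp upstream of nhr-14, on the X chromosome. Receptor NHR-14 is known for its part in iron uptake and in resistance to pathogens. Its peak had a pooled signal of 257 and rank 92 of 4944, with 107 in replicate 1 and 152 in replicate 2. It was the highest member signal in both replicates. The next was nhr-34 on chromosome IV, with a pooled signal of 169.7 and rank 301, 62.8 in replicate 1 and 105 in replicate 2. The summit of nhr-34 lay 36 bp downstream of an internal start and 3038 bp downstream of the outermost one, in coding sequence.

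On chromosome V nhr-68, which acts with nhr-10 in the switch to the propionate shunt, led with a signal of 158, rank 367, 418 bp upstream. Its replicate signals were 61.3 and 97.7. The same summit lay nearer to the start of H12C20.7. On chromosome II nhr-119 led with 152, rank 407, 371 bp upstream, and replicate signals of 64.8 and 94.2. On chromosome I nhr-49 led with 117, rank 739, 345 bp upstream, with 57.3 and 60.9. On chromosome III nhr-10 led with 72.7, rank 1859, 1397 bp upstream, with 25.1 and 49.8. Of the 6 members that led a chromosome, nhr-10 had the lowest ranks, 3059 in replicate 1 and 1389 in replicate 2.

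The 10 members with the highest signals also included nhr-47, nhr-155, nhr-5, nhr-97 and nhr-1. At nhr-47 (chromosome V, 5505253 to 5509956) the signal was 147 and the summit 8 bp downstream of the start, and the replicates gave 74.3 and 74.6. That summit also lay in the window of dnj-19, which encodes a DNAJ chaperone. At nhr-5 the signal was 113, with 56.2 and 58.8. At nhr-97 it was 108, with 30.9 and 77.7, the largest ratio of replicate 2 to replicate 1 among the 10. At nhr-1 it was 107, with 42.3 and 61.6.

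**Figure D4:**
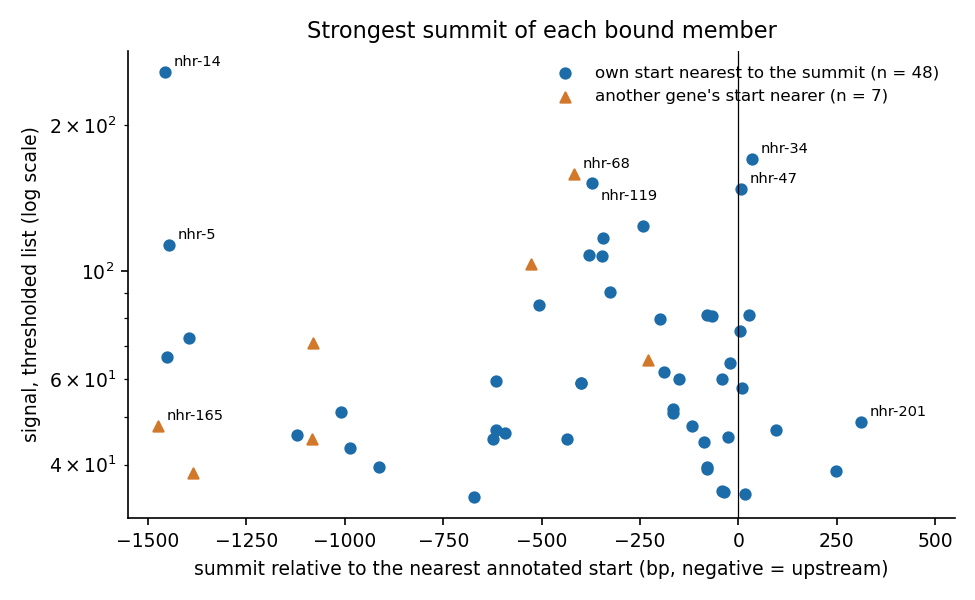
Signal in the thresholded list (log axis) against the distance of the summit from the nearest annotated start of the member, negative upstream, for the strongest summit of each of the 55 bound members. Of the points, 36 lie within 500 bp of the start and 46 upstream of it; nhr-14 and nhr-5 lie near the upstream edge, and triangles mark the 7 members whose summit is nearer to another gene's start.

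Among bound genes the members had the lower median signal. The median signal of a member's strongest peak was 59.0, against 68.7 over all 3883 bound genes, and the median rank was 2541 against 2028. Of the 55, 24 had a peak among the 2472 strongest (43.6%), against 58.8% of all bound genes. The summits stood at a median of −325 bp, against −269 bp, and 36 (65.5%) lay within 500 bp of the start, against 67%. For 48 members (87.3%) the member's own start was the nearest to its strongest summit, against 70.8% of all bound genes. Only 15 (27.3%) shared the strongest summit with another gene's window, against 52.8%. In 4 cases the other gene was itself a member. The first pair is nhr-81 and nhr-165 on chromosome I, which lie head to head and shared a summit with a signal of 48.1, 16.5 in replicate 1 and 26.8 in replicate 2. The other pair is nhr-130 and nhr-212 on V, with 45.1, 16.7 and 28.9. The 55 calls therefore rest on 53 distinct strongest peaks. Of these, 37 (69.8%) were intergenic, close to the 66.9% of all thresholded summits. Another 8 (15.1%, against 6.25%) lay in noncoding exon parts and 2 (3.77%, against 3.22%) in coding exons. The other 6 (11.3%, against 23.6%) lay in introns or unannotated parts of genes.

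Internal starts carried 7 of the calls, which were lost when the most upstream start alone was used. These were nhr-34, nhr-31, nhr-46 and nhr-66 on IV, nhr-127 and nhr-201 on V, and nhr-62 on I. With the most upstream start alone the bound members went from 55 to 48 (18.5%). Over all genes the count went from 3883 to 3661 (18.3%). The summit of nhr-46 lay farthest inside, 7806 bp downstream of the outermost start and 166 bp upstream of an internal one. Members with at least 2 annotated starts were bound in 33 of 94 cases (35.1%, against 28.0% of all genes with as many), and members with 1 start in 22 of 166 (13.3%, against 16.2%). A gene with more starts has a larger window, and the part of this in the difference was not tested.

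The room upstream also differed. The distance to the neighbouring gene upstream had a median of 1973 bp in bound members and 1336 bp in unbound ones, against 937 bp over all genes. Of members with at least 1500 bp of such room 35 of 131 were bound (26.7%, interval 19.4 to 35.2), against 15.8% of all genes of that kind. Of members with less than 500 bp 10 of 54 were bound (18.5%), against 23.2%. Members on V had a median room of 1032 bp and those on other chromosomes 2807 bp. On V 11 of 63 members with at least 1500 bp were bound (17.5%, against 11.1% of such genes) and 16 of 104 with less (15.4%, against 15.03%). Off V it was 24 of 68 (35.3%, interval 24.1 to 47.8, against 17.2%) and 4 of 25 (16%, interval 4.54 to 36.1, against 24.03%), with intervals that overlap. Repeated sequence was checked as the share of 31-base words that occur once in the genome. It was taken in the window of each gene's most upstream start alone, so it does not cover windows of internal starts. Windows with less than 90% such words belonged to 38 members, of which 2 were bound (5.26%, against 9.37% of all such genes). On V they belonged to 23 members, of which 0 were bound (interval 0 to 14.8). That interval holds the 9.37% of all such genes, so the 0 is no sign of a difference.

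The replicates were then compared at the bound members. Signals at the member summits ran from 4.59 through a median of 22.8 to 107 in replicate 1 (54 members), and from 15.3 through 34.6 to 152 in replicate 2 (55 members). Signals of the 2 lists are on their own scales, so ranks were compared. Of 54 members with a peak in both, 39 (72.2%) ranked higher in replicate 2, against 52.6% of all bound genes. Their median rank was 3526.5 in replicate 1 and 2455 in replicate 2, while all bound genes had 2169 and 2103. The shift was alike on V (19 of 27) and elsewhere (20 of 27). It was wide at nhr-182, which ranked 25929 with a signal of 4.59 in replicate 1 and 3147 with 29.9 in replicate 2. At nhr-77 there was no peak in replicate 1 and a signal of 31.2 in replicate 2. Conversely nhr-280 ranked 1189 in replicate 1 with 43.1 and 3549 in replicate 2 with 27.3.

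Among each replicate's own 4944 strongest peaks, 38 of the 55 members (69.1%) were bound again in replicate 1, against 84.2% of all bound genes. In replicate 2 it was 51 (92.7%), against 89.5%. Both replicates held 35 (63.6%), against 75.8%. The single member that neither held was nhr-64, at a pooled signal of 35.0 and rank 4817. Family-wide, replicate 1's strongest peaks bound 51 members, where 18.3% of all genes were bound, and replicate 2's bound 65, where 19.3% were. The 41 members bound in both made up 80.4% of the first set and 63.1% of the other, against 82.3% and 77.9% for all genes. These replicate lists went into the thresholded list, so the recurrence is no independent check of it.

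**Figure D5:**
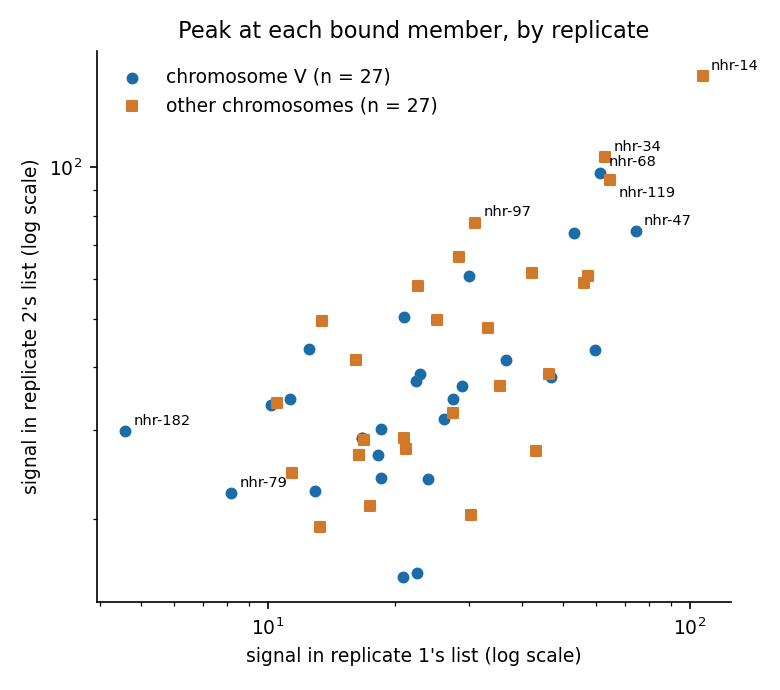
Signal of the peak at each bound member's strongest summit in replicate 1's list and in replicate 2's list (both axes logarithmic), for the 54 members with a peak in both; circles are on chromosome V and squares on the other chromosomes, and members that share a summit overlap. Both replicates place nhr-14 highest, and nhr-182 is far lower in replicate 1 (4.59) than in replicate 2 (29.9).

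Receptors with a known role in lipid and dietary metabolism were bound in 6 of 10 cases, against 19.4% of all protein-coding genes. Besides nhr-49, nhr-68 and nhr-10, these were nhr-62, which is needed for the long life of worms on a restricted diet, nhr-66, a partner of NHR-49, and nhr-64. The signal of nhr-62 was 51.3, with 21.0 in replicate 1 and 28.9 in replicate 2. That of nhr-66 was 43.2, with 17.4 and 21.2, and that of nhr-64 was 35.0, with 13.3 and 19.3. In the thresholded list the last 3 ranked 3115, 3818 and 4817, and of them nhr-62 alone was among the 4944 strongest peaks of both replicates. Not bound were nhr-80 and nhr-13, both partners of NHR-49, nhr-69, and nhr-114, which protects the germ line on certain diets. Each of these had a pooled peak in the window below the thresholded list, at 24.4 for nhr-80, 18.8 for nhr-13, 32.9 for nhr-69 and 28.2 for nhr-114. The lowest thresholded signal was 34.2, so nhr-69, at pooled rank 5183, missed the list by a small margin.

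Receptors of stress, xenobiotic and pathogen responses were bound in 3 of 5 cases, again against 19.4% of all genes. Apart from nhr-14 these were nhr-57, a gene that hypoxia induces through HIF-1, and nhr-86, a sensor of a pathogen metabolite. The peak of nhr-57 lay 199 bp upstream with a signal of 79.6, 36.7 in replicate 1 and 41.4 in replicate 2. The peak of nhr-86 lay 1385 bp upstream, with 38.4, 22.5 and 15.6, and the gene lbp-9 shared it. Not bound were nhr-45, with a pooled window peak of 10.003, and nhr-176, a regulator of xenobiotic metabolism, with none. Of 4 receptors with roles in tissue development only nhr-31, which acts in the excretory canal cell, was bound. Its summit was an intronic one with a signal of 66.6, 35.5 in replicate 1 and 36.7 in replicate 2. The peaks at nhr-40, which acts in muscle development, and at nhr-60 were below the list at 18.5 and 9.37, and nhr-2 had none. Lists of so few genes, chosen with results of these data known, allow no statement about the roles.

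Of the 9 conserved receptors outside the family 5 were bound (55.6%, against 19.4% of all genes), with signals of 95.9 at nhr-48, 94.997 at nhr-91, 92.0 at nhr-85, 79.6 at nhr-8 and 41.1 at nhr-25. The last, the Ftz-F1 receptor, acts in molting. At nhr-41 there was a pooled window peak of 22.9, below the list. A thresholded summit lay 530 bp downstream of an nhr-41 start, just outside the window. No pooled window peak was found at nhr-6, nhr-67 and nhr-23 itself. The nearest thresholded summit to an nhr-23 start lay 64528 bp away. Of 5 receptors with other names only daf-12, the receptor for dafachronic acids, was bound, at 49.6 with 24.1 and 25.7 in the replicates. The unbound ones were unc-55, fax-1, sex-1 and odr-7.

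Of a fixed list of 7 coregulators of nuclear receptors and related factors 3 were bound, against the same 19.4% of all genes. At cbp-1, the CBP and p300 acetyltransferase, the signal was 297 at rank 57, with 152 in replicate 1 and 156 in replicate 2. This is higher than at any member of the family. At din-1, a corepressor of DAF-12, it was 121, with 47.7 and 74.99. At dpy-22, a Mediator kinase-module subunit, it was 60.9, with 37.9 and 24.4. The Mediator subunit mdt-15, a partner of NHR-49, had a window peak of 20 below the list. The others, gei-8, cdk-8 and sbp-1, had window peaks of 9.25, 9.38 and 6.12.

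Among the 205 unbound members 87 (42.4%) had a weaker pooled peak in the window, against 28.3% of all unbound genes. A peak in both replicate lists was found for 78 (38.0%, against 21.2%), and 79 (38.5%, against 57%) had no peak in any list. Presence in these permissive lists is a weak criterion. Their nearest thresholded summit lay a median of 12828 bp away, from 858 to 178801 bp. Just inside the upstream edge of the window were nhr-165 at −1474 bp and nhr-14 at −1457 bp, and just outside it nhr-71 at −1540 bp (signal 62.3) and nhr-267 at −1643 bp. At the downstream edge nhr-201 at 312 bp and nhr-129 at 249 bp were inside, and nhr-22 at 858 bp and nhr-137 at 1191 bp, with a signal of 179, were outside. The weakest thresholded members were nhr-79 at 34.4 and nhr-270 at 34.8, and the strongest just below the list were nhr-177 at 33.9 and nhr-251 at 33.8.

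Some unbound members had peaks that each replicate ranked among its own 4944 strongest. There were 6 of these, all on chromosome V, which held 140 of the 205 unbound members. They were nhr-42, nhr-44, nhr-94, nhr-107, nhr-152 and nhr-256. Of the 6, 5 had no pooled peak in the window, while nhr-44 had one below the list, at 25.7 and rank 6651. At nhr-256 the summit lay 106 bp upstream in replicate 1, with a signal of 41.7 and rank 1271, and 110 bp upstream in replicate 2, with 56.995 and rank 1063. The nearest summit of the pooled list lay 25442 bp away. Both replicates thus placed nhr-256 above the median bound member. At the shared start region of nhr-94 and nhr-152 the signals were 21.4 and 44.4, with the nearest pooled summit 1684 bp away. At the site between nhr-42 and nhr-107 they were 20.9 and 22.4, with 4275 bp. Across the genome 3319 summits of replicate 1's strongest peaks lay in one of replicate 2's, and 72 of these (2.17%) were in no pooled peak. What removed such sites from the pooled list was not tested. If genes bound by both replicates are added to the thresholded calls, bound members go from 55 to 61 (23.5%). Over all genes the count goes from 3883 to 3944 (19.7%).

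Returning to the sequences, the receptor core motif lay within 50 bp of 5 of the 61 distinct summits in member windows (8.20%, interval 2.72 to 18.1). All thresholded summits gave 11.0%, the flanks of member summits, centred 500 bp to either side, 1.64%, and the flanks of all summits 4.25%. The carriers were nhr-32 (signal 84.98), nhr-31, nhr-127, nhr-86 and the weaker summit of nhr-168, at rank 3764. None of the 10 members with the highest signals had it in this window. At nhr-31 the receptor core motif was centred at −1 bp from the summit, and at nhr-127 at −48 bp.

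GAGAGA was present at 21 of 61 member summits (34.4%, interval 22.7 to 47.7), against 26.5% of all thresholded summits, 3.28% of member flanks and 5.51% of all flanks. On V it was at 6 of 29 (20.7%) and elsewhere at 15 of 32 (46.9%), with intervals of 7.99 to 39.7 and 29.1 to 65.3 that overlap. CTGCGTC was present at 11 of 61 (18.0%, interval 9.36 to 30.0), against 10.1% of all summits, 2.46% of member flanks and 0.839% of all flanks. Its carriers ran from nhr-14 at rank 92 to nhr-182 at rank 4787. As the word was picked from these summits, its member share is no independent finding, while the share over all summits includes them as a small part. No member summit held both the receptor core motif and either of the other words, 7 held GAGAGA together with CTGCGTC, and 30 of 61 held at least 1 of the 3. Such counts over all summits are not given here. With the receptor core motif at only 5 member summits, its absence beside the other words is no sign that they exclude each other. GAGAGA and CTGCGTC can overlap by their letters TC, as they do at nhr-119. A match of letters is not a measured binding site.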

How the data were processed

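ChIP-seq of eGFP-tagged NHR-23 was represented by the peak lists that the authors deposited. Each replicate had a peak list called against a control, and the pooled alignments another, per the deposited text files. The thresholded list came from an irreproducible discovery rate procedure over these lists. No aligner, caller or threshold is named in the sources used here. The deposited signal value is the caller's own measure for a peak, with no replicate error, and was used only to rank and describe peaks within a list. The thresholded peaks were the 4944 strongest of the pooled list, so a replicate's support is not shown by membership. Each replicate's own 4944 strongest peaks were used for that. Lists on assembly ce10 were not used here.

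Coordinates are 1-based, on ce11. Genes came from Ensembl release 115 on WBcel235. Sequence came from the RefSeq genome of WBcel235. Because of trans-splicing an annotated start can lie downstream of the true one, and 1 summit can fall in several windows. The motif search covered both strands, up to 50 bp from a summit. Members, lists and settings were chosen with earlier results of these data known. The genes named were the 10 strongest bound members, the leader of each chromosome, the listed genes, members at the edges of the window or sharing a summit, carriers of the receptor core motif, and the bound member in neither replicate. Those at the left end of V and those bound in the replicates alone were named after their values were seen, as were nhr-182, nhr-280, nhr-77 and nhr-46. Alternatives were other peak sets, windows, starts and motif widths. Python 3.11.15 with numpy 2.4.6, pandas 2.3.3, scipy 1.17.1 and matplotlib 3.10.9 was used, and the assignment and motif search were tested on simulated data.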

Additional observations from a re-analysis of the deposited data

How the results depend on the processing

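Of 143 values under an alternative setting 96 stayed near the reported value: within 1.5 times for a count, within the exact interval for a motif share, within the spread of the replicates for the signal percentile. The interval of a motif share is wide, and the receptor core motif was at 3.28% of member summits within 25 bp and 13.1% within 100 bp, against 8.20% within 50 bp. Counts of bound members are given, with 55 as reported. With the 2472 strongest peaks, 24 members were bound (1 on I, 1 on II, 10 on V, 3 on X, 15 in centres, 9 in arms, 5 in the arms of V, 2 in the first Mb of V, 7 in arrays and 17 outside them, and off V 0 in arrays and 14 outside), and GAGAGA was at 48.1% of member summits, against 18.0% within 25 bp. With thresholded peaks among the strongest of both replicates, 34 were bound where 14.4% of genes were (2 on I, 1 on II, 17 on V, 17 in arms, 11 in the arms of V, 5 in the first Mb, 13 in arrays, 0 of them off V, and 21 outside). With 500 bp upstream, 36 were bound where 13.8% of genes were (3 on I, 2 on II, 0 on III, 3 on X, 15 in centres and 17 outside arrays, 13 of these off V). With 3000 bp upstream, 73 were bound where 24.8% of genes were. On X it was 12 of 20 (60%, against 24.2% of genes there), and in arrays off V 6 of 29. With the nearest start alone, where 17.1% of genes were bound, 7 were bound on II, 1 on III, 12 on X and 6 in arrays off V. With arrays drawn at 20 kb, 7 of 44 members in arrays off V were bound. Leaving out a replicate gave 51 to 65 members, 2 to 5 on I, 2 to 4 on II, 12 to 15 in the centre of V, 6 to 10 in its first Mb, 0 to 3 in arrays off V and a median signal percentile of 41.8 to 48.2, against 48.6. With the most upstream start alone, 48 were bound where 18.3% of genes were.

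A grouping by receptor zinc finger was planned and was not run, because protein sequences were not used here. No paired analysis was possible because the replicates form 1 group. Unknown depth limits what a missing peak can mean: a member without a peak had none detectable in these lists. Settings restricted to unique windows, to own starts and to either source of calls were chosen after seeing the data.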
